A study of Sus scrofa with 6 samples.

Results

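The annexins are a family of proteins that bind phospholipid membranes when calcium rises. Their transcripts were followed in mucosal scrapings of the sow's uterine horn in the presence of blastocysts and of oocytes. Probe sets were chosen by the gene symbol of the array's annotation, for a list of 10 annexin genes. The annotation named 5 of these genes, ANXA1, ANXA2, ANXA4, ANXA5 and ANXA11, in 6 of the 24123 probe sets of the array. ANXA4 had 2 probe sets and the other 4 genes had 1 each. ANXA3, ANXA6, ANXA7, ANXA8 and ANXA10 were named by no probe set and were not analysed here, and 13732 of the tested probe sets carried no symbol. The 6 annexin probe sets were taken by symbol and not by their measured values. The gene list was chosen with earlier results of these data known. For the marker and partner genes below, the brightest probe set on these arrays stood for the gene.

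The tissue came from 3 crossbred Landrace x Large White sows. In each sow spermatozoa were injected by laparoscopy into the oviduct of one side, which gave the horn with embryos at the blastocyst stage, and diluent alone into the opposite oviduct, which gave the horn with oocytes. Both horns were opened on day 6, and mucosal cells were scraped with a glass slide from the end of the horn next to the oviduct, the first 10 cm in the sample labels. One Affymetrix porcine array was hybridized per horn, 3 with embryos and 3 with oocytes, so that the horns of a sow shared the mother, the hormonal state and the surgery but not the fluid injected. The labels name no sow, and arrays of equal replicate number were taken as the horns of the same sow. Scrapings hold more than one cell type, and in such tissue fewer cells of a type and less RNA per cell cannot be told apart.

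Annexins share a core of repeated domains that hold calcium against acidic lipids, while their short amino-terminal tails differ and bind different partners. ANXA1 mediates part of the anti-inflammatory action of glucocorticoids through formyl peptide receptors. ANXA2 forms a complex with S100A10 at the plasma membrane and gathers plasminogen and its activator. ANXA4 is abundant in secretory epithelia and rises in the human endometrium in the secretory phase of the cycle. ANXA5 covers phosphatidylserine on cell surfaces and prevents clotting there. ANXA11 binds S100A6 and PDCD6 and is known for a part in membrane traffic and cell division.

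The deposited signals come from the authors' run of Microarray Suite 5.1 (MAS5) and have no unit. For the tests these linear values were put on a log2 scale and normalized between arrays by cyclic loess, and a positive log2 fold change means a higher signal in the presence of embryos. All 6 annexin probe sets were bright, between the percentiles 94.6 and 99.2 of the 23999 probe sets tested. This places them well above the dim range of the array, but signals of different probe sets depend on their probes and do not rank the genes by abundance. The 5'/3' signal ratio of the GAPDH control, a measure of RNA integrity and of full-length copying, ran from 0.130 to 0.243 with embryos and from 0.200 to 0.355 with oocytes. The same ratio of the actin control was smaller, from 0.058 to 0.149 with embryos and from 0.105 to 0.219 with oocytes. That of the EF1A control lay near 1, from 0.871 to 1.12 with embryos and from 1.14 to 1.27 with oocytes. For each of these controls, each of the 3 sows had the lower ratio in the horn with embryos. Epithelial markers were bright, as for EPCAM at 2161 ± 141 with embryos and 2217 ± 96.1 with oocytes (SD, n = 3 each). The summed signal of the 6 measured epithelial markers ran from 7617 to 10404 with embryos and from 7839 to 10140 with oocytes. The fibroblast markers DCN, LUM and VIM were bright as well. COL1A2 was dimmer, with mean signals of 93.3 with embryos and 145 with oocytes. COL3A1 lay below the array median, at 25.1 with embryos and 27.3 with oocytes. The log2 fold changes of COL1A2 and COL3A1 were -0.46 and -0.66 (standard errors 0.46 and 0.78). Of the 5 fibroblast markers 2 lay above 0 and 3 below. Their sum ran from 3220 to 6559 with embryos and from 3305 to 7022 with oocytes. The 7 measured leukocyte markers were dim in sum, from 179 to 236 with embryos and from 138 to 226 with oocytes, and 5 of them lay above 0 and 2 below, with a median log2 fold change of 0.28. None of these markers was at 0 on any array.

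The annexins as a group did not move one way. Of the 6 probe sets 4 lay above 0 and 2 below, where 50.8% of all probe sets lay above 0. Their median log2 fold change was 0.05, against 0.01 over all probe sets, and the single values ran from -0.23 to 0.21. With limma 0 of the 6 passed an adjusted p of 0.05 (adjusted p = 1.00 for each), as did 0% of all probe sets tested, and 0 had an unadjusted p under 0.05, against 2.88% of all. With the sow as a block 0 passed the adjusted threshold as well (smallest adjusted p = 0.473, for ANXA11), and 2 of 6 had an unadjusted p under 0.05, the second ANXA4 probe set lower and ANXA11 higher, against 8.70% of all. Without the embryo array of sow 1 the median became -0.03 and without the oocyte array of sow 2 it became -0.06, and 2 of the 6 lay above 0 in either case.

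**Figure D1:**
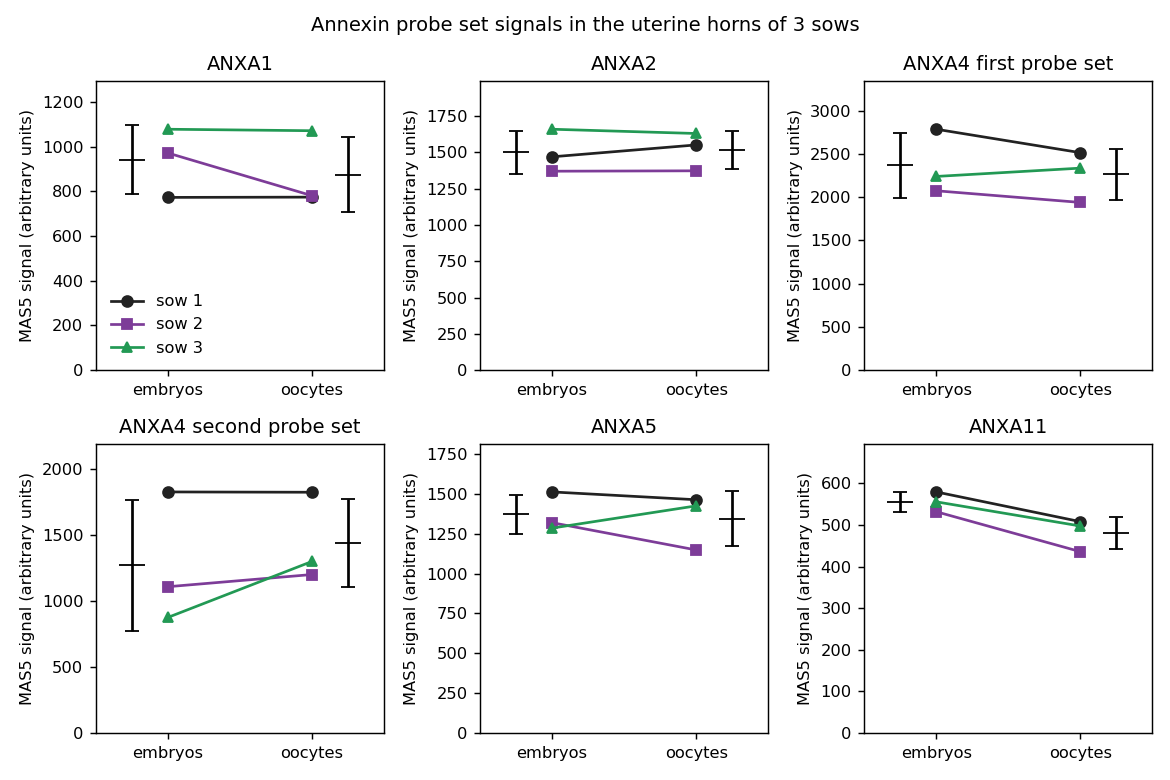
MAS5 signal (y axis, arbitrary units, from 0) of the 6 annexin probe sets in the horns with embryos (left) and with oocytes (right). Each symbol is 1 array, lines join the horns of a sow, and bars at the sides give the mean ± SD of 3 sows; ANXA11 is the one panel in which all 3 arrays with embryos lie above all 3 with oocytes.

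ANXA11 showed the clearest separation of the horns. Its signal was 580, 532 and 556 in the horns with embryos of sows 1, 2 and 3, and 508, 436 and 498 in their horns with oocytes. The lowest horn with embryos lay above the highest horn with oocytes, so the groups did not overlap, which held in this direction for 4.03% of all probe sets. The ratio of embryos to oocytes within a sow was 1.14, 1.22 and 1.12, higher in 3 of 3 sows, as for 14.9% of all probe sets. The mean was 556 ± 23.8 with embryos and 481 ± 39.0 with oocytes (SD, n = 3 each), a log2 fold change of 0.21 with a standard error of 0.12. The 95% interval from limma ran from -0.07 to 0.49, or from 0.954-fold to 1.40-fold (unadjusted p = 0.120, adjusted p = 1.00). With the sow as a block the interval was narrower and lay above 0, from 0.04 to 0.38, but the adjusted p over the array was 0.473 with limma (unadjusted p = 0.0189). All 13 alternatives left the value above 0, and it was lowest, at 0.13, without the oocyte array of sow 2, the dimmest of the 6. In the same 3 sows the GAPDH 5'/3' ratio was lower with embryos, by 0.54, 0.62 and 0.18 on the log2 scale in sows 1, 2 and 3, and its part in the ANXA11 values was not tested. The summed signal of 7 leukocyte markers also lay higher with embryos in each sow, at 179, 236 and 199.5 with embryos and 162, 226 and 138 with oocytes in sows 1, 2 and 3. With the sow as a block 1 of the 7 had an unadjusted p under 0.05 with limma, against 8.70% of all probe sets. This was ITGB2, an integrin subunit of leukocytes (log2 fold change 0.45, higher in 3 of 3 sows, unadjusted p = 0.0372 with limma). Of the 7 markers 5 had a log2 fold change above 0 and 2 below, PTPRC at -0.15 and CD79B at -0.30. Signals of 0 were seen for 0 of the 7. The part of the leukocyte markers was not tested either.

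Lower values with embryos in 3 of 3 sows were seen at 1 of the 2 probe sets of ANXA4. The second probe set (Ssc.1143.3.S1_a_at) had a signal of 1826, 1108 and 875 in the horns with embryos of sows 1, 2 and 3, and 1824, 1200 and 1300 in their horns with oocytes. Sow 1 was high in both horns and differed little between them, and sow 3 carried most of the difference. In normalized log2 values embryos differed from oocytes by -0.01, -0.12 and -0.55 in sows 1, 2 and 3, while in the deposited signals sow 1 lay slightly the other way, with a ratio of 1.00. Lower in all 3 sows were 14.8% of all probe sets. The study lists this probe set among its candidate transcripts and chose it on the same arrays, so its direction here is not independent evidence. Its log2 fold change was -0.23 (standard error 0.28, 95% interval -0.86 to 0.40, unadjusted p = 0.437 from limma), the widest interval of the 6. The groups overlapped, and the spread between sows was larger than the difference between horns. With the sow as a block the interval ran from -0.45 to -0.0024 (unadjusted p = 0.0480, adjusted p = 0.569 with limma). Without the embryo array of sow 3 the value was 0.0039, and without the embryo array of sow 1 it was -0.54 (unadjusted p = 0.0356 with limma).

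The first ANXA4 probe set (Ssc.1143.1.S1_a_at) did not share this direction. It had 2787, 2075 and 2241 in the horns with embryos of sows 1, 2 and 3, and 2516, 1940 and 2337 in their horns with oocytes. In sows 1 and 2 it was higher with embryos, and in sow 3 it was lower. The means were 2368 ± 372 with embryos and 2264 ± 294 with oocytes (SD, n = 3 each), a log2 fold change of 0.07 (standard error 0.16, 95% interval -0.29 to 0.43). The groups overlapped over most of their range, and the value turned to -0.07 without the embryo array of sow 1 and to -0.05 without the oocyte array of sow 2. Both probe sets of ANXA4 were highest in sow 1, in either horn.

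Within each array the second ANXA4 probe set can be set against the first, which leaves out any difference in total RNA or scaling between horns. Its log2 signal minus that of the first was -0.61, -0.91 and -1.37 with embryos in sows 1, 2 and 3, against -0.46, -0.69 and -0.85 with oocytes. The absolute size of this difference depends on the probes and has no meaning for the gene. It was more negative with embryos in each sow, by 0.15, 0.22 and 0.52 on the log2 scale. In sow 1 the first probe set was higher with embryos by 0.14, and the second was nearly equal (-0.01). The first and second differed by 0.10 and -0.12 in sow 2, and by -0.03 and -0.55 in sow 3. How often 2 probe sets of 1 gene part in this way on the array was not computed. As the second probe set was chosen by the study on this contrast, the gap is given as a description without a test. The GAPDH 5'/3' ratio was also lower with embryos in each sow, and its part in this gap was not tested.

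**Figure D2:**
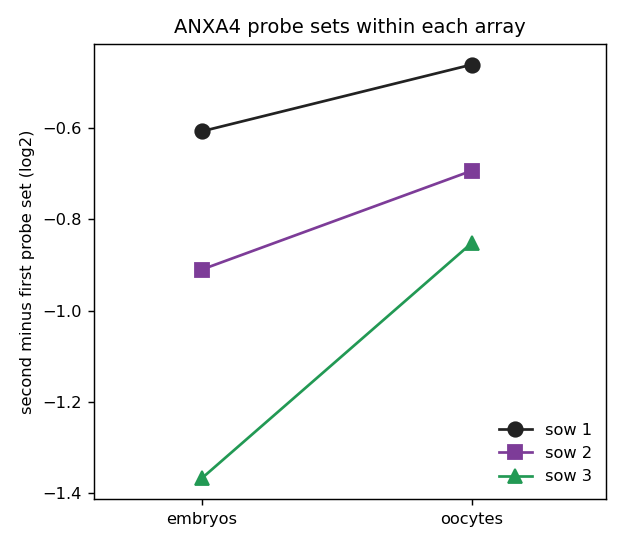
Log2 signal of the second ANXA4 probe set minus that of the first within each array (y axis), in horns with embryos (left) and with oocytes (right). Symbols and lines mark the 3 sows, and the value is lower with embryos in each, with the lowest at -1.37 in sow 3.

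ANXA1, the glucocorticoid-induced annexin, varied between sows more than between horns. Its signal was 773, 971 and 1078 in the horns with embryos of sows 1, 2 and 3, and 774, 780.2 and 1071 in their horns with oocytes. Sow 3 was high in both horns. Sow 1 was the lowest with embryos, while with oocytes sows 1 and 2 were nearly equal (9.63 and 9.59 in normalized log2 values). Only sow 2 differed clearly between its horns, with a ratio of embryos to oocytes of 1.24 against 0.998 in sow 1 and 1.01 in sow 3. The log2 fold change was 0.11 (standard error 0.17, 95% interval -0.27 to 0.49, unadjusted p = 0.534 from limma). It ran from 0.0014 without the embryo array of sow 3 to 0.26 without the oocyte array of sow 3.

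ANXA2, the partner of S100A10 on the cell surface, differed least between the horns. It had 1470, 1371 and 1660 in the horns with embryos of sows 1, 2 and 3, and 1552, 1374 and 1631 in their horns with oocytes. The ratio within a sow was 0.947, 0.998 and 1.02, and the groups overlapped almost entirely. The means were 1501 ± 147 with embryos and 1519 ± 132 with oocytes (SD, n = 3 each). The log2 fold change was -0.01 (standard error 0.13), with an interval from 0.811-fold to 1.21-fold and, with the sow as a block, from 0.890-fold to 1.10-fold. Its sign turned with quantile normalization, to 0.0087, and without the embryo array of sow 2 (0.06), the oocyte array of sow 1 (0.02) or the oocyte array of sow 3 (0.03).

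ANXA5, which binds exposed phosphatidylserine, went in different directions in the 3 sows. It had 1513, 1320 and 1286 in the horns with embryos of sows 1, 2 and 3, and 1464, 1148 and 1425 in their horns with oocytes. It was higher with embryos in sows 1 and 2 and lower in sow 3, with ratios of 1.03, 1.15 and 0.902. Its log2 fold change was 0.04 (standard error 0.14, 95% interval -0.28 to 0.35, unadjusted p = 0.801 from limma). It turned to -0.05 without the embryo array of sow 1 and to -0.08 without the oocyte array of sow 2.

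**Figure D3:**
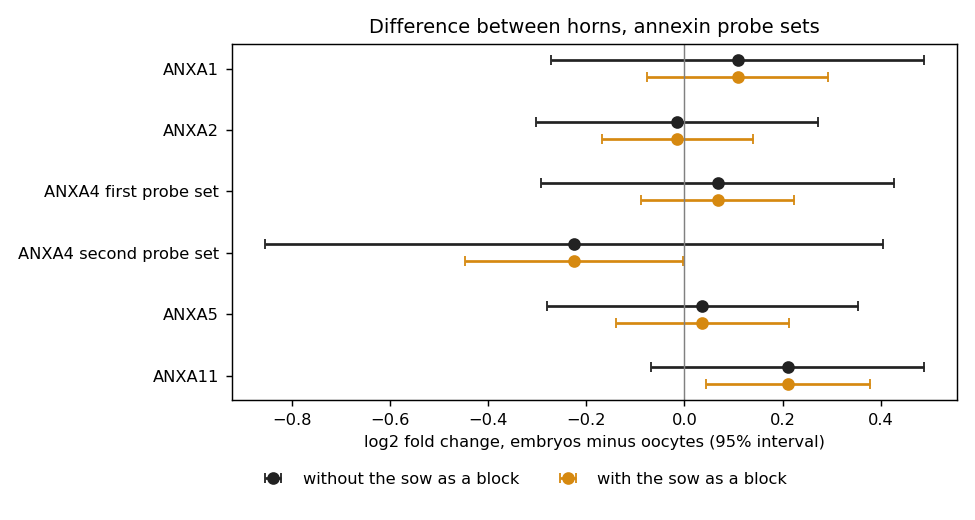
Log2 fold change of embryos over oocytes (x axis) with its 95% interval from limma for the 6 annexin probe sets, without (black) and with (orange) the sow as a block. All 6 black intervals span 0, and with the block those of ANXA11 and of the second ANXA4 probe set do not.

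The sows themselves differed more than their horns for most of the 6 annexin probe sets. For 5 of the 6 probe sets the range of the 3 sow means was larger than the largest difference within a sow, and ANXA11 was the exception (0.23 between sows against 0.28 within a sow, log2). The share of all probe sets was computed neither for this count nor for the order of the sows. They therefore do not set the annexins apart from other probe sets. The range between sows was 0.81 for the second ANXA4 probe set, 0.45 for the first, 0.44 for ANXA1, 0.33 for ANXA5 and 0.28 for ANXA2, all on the log2 scale. The order of the sows was not shared by all annexins. Both ANXA4 probe sets, ANXA5 and ANXA11 were highest in sow 1, while ANXA1 and ANXA2 were highest in sow 3. In sow 2 the first ANXA4 probe set, ANXA2, ANXA5 and ANXA11 were lowest, whereas ANXA1 was lowest in sow 1 and the second ANXA4 probe set in sow 3. Markers of cell types also differed between sows. The fibroblast sum was 6559 with embryos and 7022 with oocytes in sow 1, against 3220 with embryos and 3305 with oocytes in sow 2. In sow 3 it was 4887 with embryos and 4697 with oocytes. The epithelial sum was 7617 with embryos and 7839 with oocytes in sow 1, the lowest of the 3 sows, and 9858 with embryos and 10140 with oocytes in sow 2. In sow 3 it was 10404 with embryos and 9827 with oocytes. The sum of 4 smooth muscle markers was 1365 with embryos and 2141 with oocytes in sow 1. It was 572 with embryos and 458 with oocytes in sow 2, and 907.5 with embryos and 787 with oocytes in sow 3. The part of these markers in the annexin values was not tested.

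**Figure D4:**
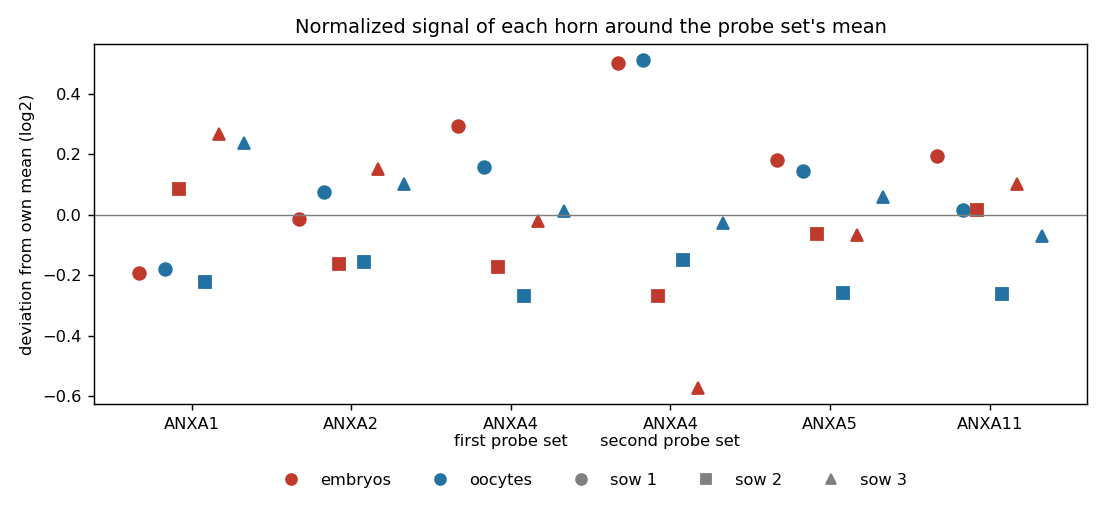
Deviation of each array from the mean of its probe set (y axis, normalized log2 signal) for the 6 annexin probe sets, with embryos in red and oocytes in blue and a symbol for each sow. Horns of the same sow lie close together for most probe sets, and the second ANXA4 probe set has the widest spread.

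Standard errors of the 6 differences ran from 0.12 to 0.28, and from 0.07 to 0.10 with the sow as a block. Their median was 0.15, against 0.34 over all probe sets and 0.14 over the 1115 probe sets of the same range of signal. With 3 sows the number of arrays limits the precision, and an adjusted p above the threshold does not show that an annexin was equal in both horns.

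Of 31 genes listed as partners of annexins or as parts of the same pathways, 18 were named on the array, and 9 of them lay above 0 and 9 below, with a median log2 fold change of -0.01 (0.01 over all probe sets). None passed the adjusted threshold with limma (smallest adjusted p = 1.00), 0 had an unadjusted p under 0.05 (2.88% of all probe sets), and 1 had one with the sow as a block (8.70% of all) or, without the block, when the oocyte array of sow 2 was left out. Each gene was read at its brightest probe set, and 13 of the 18 lay above the median signal of the array. S100A10, which joins ANXA2 in a heterotetramer, had 1310, 1397 and 1646 in the horns with embryos of sows 1, 2 and 3, and 1408, 1397 and 1506 in their horns with oocytes. As for ANXA2, its ratio of embryos to oocytes was lowest in sow 1, and the log2 fold change was 0.01 (standard error 0.12, 95% interval -0.26 to 0.28). S100A11, which binds ANXA1, had 1652 ± 167 with embryos and 1741 ± 112 with oocytes (SD, n = 3 each), a log2 fold change of -0.07 (standard error 0.11). S100A4, which can bind ANXA2, lay near the median of the array and varied, at 44.6 ± 22.0 with embryos and 35.1 ± 14.7 with oocytes (SD, n = 3 each). S100A6, the formyl peptide receptors FPR1 and FPR2 and the annexins ANXA9 and ANXA13 were named by no probe set.

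Among the partners TSC22D3, a glucocorticoid-induced leucine zipper gene, had the smallest p. Its signal was 386, 457 and 431 in the horns with embryos of sows 1, 2 and 3, and 326, 415 and 284 in their horns with oocytes. It was higher with embryos in 3 of 3 sows, although the groups overlapped. Higher in all 3 sows were 14.9% of all probe sets, and lower in all 3 were 14.8%. TSC22D3 had a log2 difference of 0.33 with a standard error of 0.16. The unadjusted p from limma was 0.0695 and, with the sow as a block, 0.00982 (adjusted p = 0.430 with the block). The 95% interval ran from -0.03 to 0.68 and, with the block, from 0.10 to 0.55. The summed leukocyte markers were likewise higher and the GAPDH 5'/3' ratio lower with embryos in each sow, and their part in the TSC22D3 values was not tested. A second TSC22D3 probe set was dim, between 0.8 and 10.9 on all arrays, with a log2 fold change of -0.58 (standard error 1.03). FKBP5, another glucocorticoid target, had 298 ± 65.3 with embryos and 277 ± 53.7 with oocytes (SD, n = 3 each) at its brighter probe set, higher in 3 of 3 sows (log2 fold change 0.10, standard error 0.21), while the other lay at -0.52 (standard error 0.37), lower in 3 of 3, with an unadjusted p of 0.196 from limma, and of 0.0239 with the sow as a block (95% interval -0.95 to -0.08, adjusted p = 0.498). NR3C1, listed with these glucocorticoid genes, lay below the array median at its brightest probe set, with a log2 fold change of -0.04 (standard error 0.40). Its other probe sets were dimmer and of mixed sign, and their 95% intervals from limma all spanned 0. SRI (sorcin), a calcium-binding partner of ANXA7, had a log2 fold change of -0.10 (501 ± 44.1 with embryos and 538 ± 46.5 with oocytes, SD, n = 3 each). MFGE8, a bridging protein that binds phosphatidylserine, and TFPI, an inhibitor of coagulation, were dim, and their log2 fold changes of -0.50 and 0.28 had standard errors of 0.64 and 0.49. Fibrinolysis was represented by PLAT, PLAU and PLG and membrane repair by CAPN1, CAPN2, PDCD6, PEF1 and SRI, and no gene of these groups had an unadjusted p under 0.05 in either fit with limma.

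**Figure D5:**
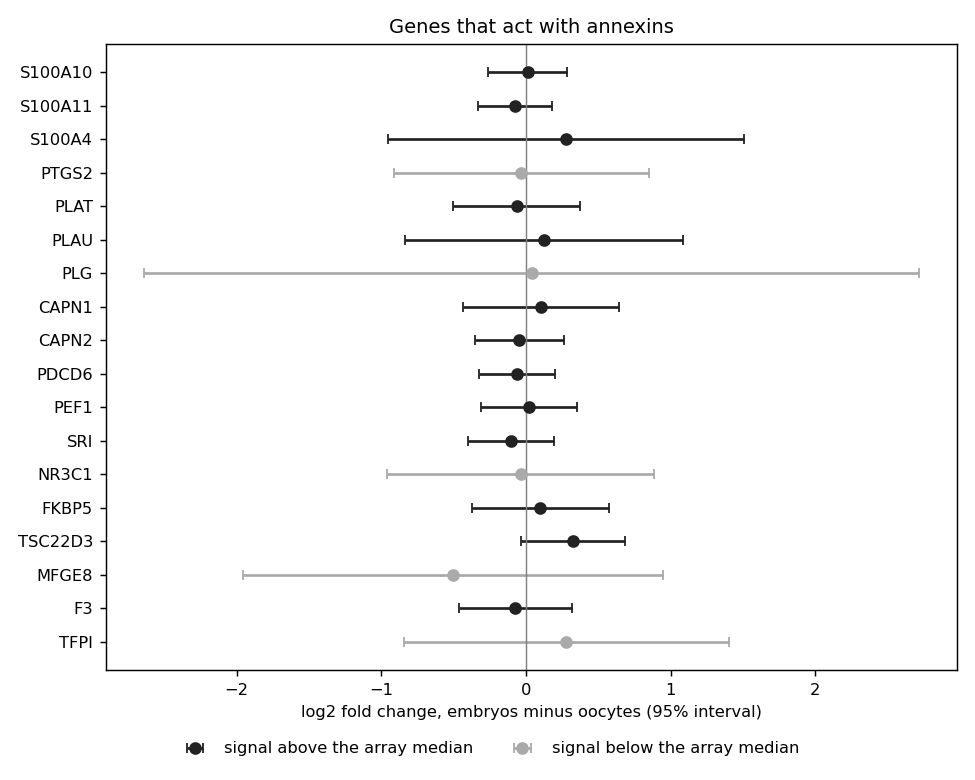
Log2 fold change of embryos over oocytes (x axis) with its 95% interval from limma for the 18 measured partner genes, in black for a mean signal above the median of the array and in grey below it. The fit is the one without the sow as a block. All 18 of its intervals span 0, and TSC22D3 has the highest value, at 0.33. With the block, not drawn here, the TSC22D3 interval lay above 0.

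The genes most like ANXA1, ANXA2, ANXA5 and the first ANXA4 probe set over the 6 arrays were sought, but not those most like ANXA11 or the second ANXA4 probe set, among 6103 probe sets of above-median signal with 1 symbol (6102 for ANXA4), by the root mean square difference of centred log2 values. The nearest to ANXA1 was DLD, a mitochondrial dehydrogenase subunit, at 0.0473, where the median candidate lay at 0.288. The nearest to ANXA2 was NDUFA13, a subunit of respiratory complex I, at 0.0191 (median candidate 0.239). For the first ANXA4 probe set and for ANXA5 it was the transcription factor MEF2A, through different probe sets, at 0.0201 and 0.0349 (median candidates 0.274 and 0.252). By this choice the nearest gene always lies below the median candidate, so that gap shows no likeness in itself. Such nearness over 6 arrays from 3 sows describes these arrays and was not tested.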

How the data were processed

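The authors deposited 1 intensity per probe set and array, computed with MAS5 version 5.1 and scaled so that the mean of each array without its highest and lowest 2% was 100.02. These values do not hold the Lowess normalization that the methods name, and detection calls and single probes were not used here. Signals under 0.1 were set to 0.1, and log2 values were normalized between the 6 arrays by cyclic loess. After removal of 124 control probe sets, 23999 were tested for the group with limma 3.58.1 in R 4.3.3, with a variance trend, Benjamini-Hochberg adjustment at 0.05 and no filter or block. Gene symbols came from the array's annotation. Detection limits and depth cannot be given for arrays.

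Arrays of equal number in the labels were taken as the horns of 1 sow. Their deviations from the group means correlated at 0.207, 0.173 and 0.1002, and each array correlated best with its own number. Alternatives were the deposited scale, quantile and median normalization, 32 added to each signal, probe sets above the median signal, no trend, a block for the sow, averaging of a gene's probe sets, and each array left out. All annexin probe sets were named, with the S100 genes and the 5 smallest p of the partner list and the nearest gene in pattern. FKBP5, NR3C1, ITGB2, PTPRC, CD79B, COL1A2 and COL3A1 were chosen for naming after their values were seen. Members and lists were chosen with earlier results of these data known. The test was checked on simulated data. Plots used matplotlib 3.10.9 (Python 3.11.15).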

Additional observations from a re-analysis of the deposited data

How the results depend on the processing

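No annexin probe set and no partner gene passed an adjusted p of 0.05 with limma under any of the 13 alternatives run for the annexins or the further one for the partners. The number with an unadjusted p under 0.05 was 0 of 6 annexin probe sets, 2 with the sow as a block (replicate block) and 0 to 1 with an array left out, and 0 of 18 partner genes, 1 with the block and 0 to 1 with an array left out. Leaving out an array moved the median log2 fold change of the annexins between -0.065 and 0.084 and the number above 0 between 2 and 5 of 6. ANXA1 and ANXA11 lay above 0 under all 13. ANXA2 turned to 0.0087 with quantile normalization. With an array left out ANXA2 ran from -0.095 to 0.061, the first ANXA4 probe set from -0.068 to 0.17, the second from -0.54 to 0.0039 and ANXA5 from -0.082 to 0.12, so that these 4 each turned in at least 1 case. The cause was not tested. Beyond these counts, the block took an FKBP5 probe set that was not the brightest and the leukocyte marker ITGB2 under an unadjusted p of 0.05 (0.0239 and 0.0372), and no adjusted call changed with it. All 6 annexin signals were bright, and 3 sows limit the precision.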
